A study of Mus musculus with 83 samples.

Results

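Rian is a long noncoding RNA gene of the imprinted Dlk1-Dio3 region on mouse chromosome 12, and small RNA genes lie within and beyond it. Of the 32101 features in the deposited small RNA table, 21 are named SNORD113, Mir341 or Mir370 and lie within or just beyond Rian on chromosome 12, from 110849710 to 110927754 (build NCBIM37). They comprise 19 copies of SNORD113, a C/D box small nucleolar RNA (snoRNA), and the miRNA genes Mir341 and Mir370. The copies share a name, so they are numbered 1 to 19 here from the lowest start position. The rule for members used names and positions and no measured value, but it was set with earlier results of these data known. Small RNA of mouse embryonic stem cells (ESCs, a cell line from an early embryo) was sequenced in 3 control and 3 Dnmt1 KO libraries on each of days 1, 3, 6, 9, 11 and 25. In Dnmt1 KO cells Dnmt1, the maintenance DNA methyltransferase, was deleted conditionally by Cre recombinase that tamoxifen activates; the study does not state whether control cells also received tamoxifen. The labels give the ESC background as E14, whereas the study's methods describe Dnmt1 loxP/loxP ESCs of C57BL/6. AGO2, an Argonaute protein that holds miRNAs, was pulled down from control and Dnmt1 KO cells in 4 libraries each, on day 9 by the study's results text (the labels give no day). PGCs (primordial germ cells, from which eggs and sperm form) of C57BL/6 embryos with an Oct4-GFP transgene, sorted by GFP and labelled E13_5 and E14_5, were sequenced in 1 library per sex and stage. A further 3 PGC libraries have titles that end in R1. Groups follow the sample titles and source names. A genotype tag reverses them in the AGO2 libraries, in a pair labelled "none", and on days 1 to 9 of a parallel set whose titles end in R1, and a cell type tag calls the PGC libraries ESCs.

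In the Dlk1-Dio3 region the noncoding RNAs Meg3, Rian and Mirg are made from the maternally inherited chromosome, while the paternally inherited copy carries DNA methylation at the control region and keeps them silent. C/D box snoRNAs usually form from introns, and their C and D boxes bind the proteins of a particle that methylates the ribose of other RNAs. The SNORD113 family has no known ribosomal RNA target. A miRNA is instead cut from a hairpin by Drosha and Dicer and loaded into an Argonaute protein, where its seed pairs with target mRNAs. Only reads of 20 to 24 nt were kept by the authors, so a value of a SNORD113 copy counts short fragments of the snoRNA and not the whole molecule.

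The mature miRNAs of both hairpins are shown first because miRNAs with the same seed have target sites in common (RefSeq sequences, annotated on GRCm38.p6, 5′ to 3′, with the seed in capitals, bases 2 to 8).
mmu-miR-341-5p: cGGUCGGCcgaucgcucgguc
mmu-miR-341-3p: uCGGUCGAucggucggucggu
mmu-miR-370-5p: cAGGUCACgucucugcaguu
mmu-miR-370-3p: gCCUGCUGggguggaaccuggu
No seed was shared among the 4. The table holds 1 value per hairpin, so the arms cannot be told apart. The hairpin feature of Mir341 lies at chr12:110849710-110849805 and that of Mir370 at chr12:110856468-110856546 (NCBIM37, plus strand).

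The letters of a C box (TGATGA within the first 15 bases) and of a D box (CTGA within the last 15 bases) are set in capitals in the following SNORD113 copies, read from the NCBIM37 genome on the plus strand. Copies 7, 16, 10 and 3 had the highest mean level over the time course. Copy 11 lies beside copy 10 but gave almost no reads, and copies 13 and 14 are near-identical.
copy 3 (chr12:110874222-110874294): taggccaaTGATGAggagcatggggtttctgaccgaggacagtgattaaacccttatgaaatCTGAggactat
copy 7 (chr12:110887827-110887898): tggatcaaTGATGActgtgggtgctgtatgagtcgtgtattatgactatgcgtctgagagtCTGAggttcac
copy 10 (chr12:110894555-110894626): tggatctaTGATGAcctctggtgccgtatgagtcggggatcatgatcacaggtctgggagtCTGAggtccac
copy 11 (chr12:110895335-110895406): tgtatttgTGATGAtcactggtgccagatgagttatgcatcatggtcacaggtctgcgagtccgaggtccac
copy 13 (chr12:110919010-110919084): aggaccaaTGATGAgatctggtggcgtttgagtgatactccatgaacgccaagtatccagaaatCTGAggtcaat
copy 14 (chr12:110920594-110920668): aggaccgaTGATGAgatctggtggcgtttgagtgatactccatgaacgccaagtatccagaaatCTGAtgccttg
copy 16 (chr12:110923172-110923244): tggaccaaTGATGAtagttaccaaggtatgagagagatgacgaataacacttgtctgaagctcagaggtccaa
Of the 19 copies, 14 (73.7%) held the C box letters, 12 (63.2%) the D box letters and 9 (47.4%) both. Among 161 other features named as C/D snoRNAs the shares were 49.7%, 85.1% and 45.3%. Of the 56 stretches of 20 bases in copy 13, 43 also occur in another member, as do 42 of the 56 in copy 14. Only 12 stretches of copy 13 and 13 of copy 14 occur once in the genome, so most reads of that length cannot be placed in 1 copy and the values of both copies are uncertain. Copies 3 and 6 have only 64.8% and 38.2% of such stretches once in the genome, and all stretches of copies 7, 10 and 16 occur once.

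By name and position, all 21 members have an entry in GENCODE vM1. Mir341, Mir370 and copies 1 to 11 lie inside annotated Rian (chr12:110842155-110899919), whereas copies 12 to 19 lie downstream of its annotated end and inside no other gene. A read in a contained member therefore counts for Rian as well. In Dnmt1 KO libraries of day 9, the contained members made up 82.4% ± 0.751 (mean ± SD, n = 3) of the RPM (reads per 1e+06 reads) of Rian. On day 11 their share was 74.9% ± 1.67 in Dnmt1 KO and 51.4% ± 3.47 in control. Rian therefore gives no independent value.

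Depth was 870481 to 6239008 reads per library on days 1 to 11, 521066 to 815523 on day 25, 11497724 to 25422978 in AGO2 control and 1152390 to 11520126 in AGO2 Dnmt1 KO. Replicates differed by more than counting noise (chi-square per degree of freedom of at least 2.15 in every pair). It was far higher among AGO2 replicates, at 848 for AGO2 control 2 against 3 and 304 for AGO2 Dnmt1 KO 1 against 3. Replicate 1 of Dnmt1 KO on day 3 gave 27.6 and 32.4 against the others. The Dnmt1 feature held 23.1 to 56.5 RPM in control and 18.1 to 63 RPM in Dnmt1 KO libraries of days 1 to 11, so fragments of 20 to 24 nt do not check the deletion. ESC-abundant miRNAs of the miR-290 and miR-302 families (12 of 12 with a feature) summed to 176156 to 209785 RPM in control of day 25 and to 110780 to 141633 RPM in the other time course groups. Of 11 miRNAs of other cell types, 8 had a feature. Over the 36 time course libraries Mir133a-1 (muscle) and Mir199a-1 (mesenchyme) were at 0, and Mir122a (liver) reached 0.359 RPM. Mir142 and Mir223 (blood) had medians of 1525 and 1.77 RPM, Mir143 and Mir145 (smooth muscle) of 10733 and 82.6 RPM, and Mir214 (mesenchyme) of 130 RPM. The sum of the 8, mostly Mir143, ranged over 11302 to 13342 RPM (control) and 11388 to 12883 RPM (Dnmt1 KO) on day 1, but 7745 to 8466 and 13225 to 14852 RPM on day 6, 11689 to 15688 and 22817 to 25000 RPM on day 9, 11238 to 11839 and 14479 to 16420 RPM on day 11, and 1619 to 1722 and 1685 to 1737 RPM on day 25. Its part in the results was not tested. In bulk samples, more cells with a transcript and more of it per cell cannot be told apart.

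Reads were spread very unevenly over the copies. Over the 36 time course libraries, copy 7 had the highest mean (178 RPM, 20256 reads), followed by copy 16 (137 RPM), copy 10 (54.5 RPM), copy 3 (40.4 RPM), copy 6 (36 RPM) and copy 17 (33.9 RPM). The order is weighted by the higher Dnmt1 KO levels. In control of day 11, copy 17 (14.2 ± 1.25 RPM), copy 3 (10.4 ± 2.51 RPM) and copy 6 (7.34 ± 1.45 RPM) lay above copy 10 (4.32 ± 0.942 RPM, mean ± SD, n = 3). By mean RPM in control, copy 17 also lay above copy 3 on each of days 1 to 11. Copy 6 lay above copy 3 on days 1, 3 and 9, but not on days 6 and 11. Mir341 averaged 371 RPM and Mir370 averaged 60 RPM. At the other end, 8 copies (2, 4, 5, 9, 11, 12, 18 and 19) stayed under 1 RPM and gave 24 reads together in all 36 libraries, and copies 9, 12 and 19 gave none. Of the 9 copies with both boxes, 8 reached 10 RPM in at least 3 libraries, the level needed for testing. Of the 8 copies with a single box, 2 did (copies 16 and 17), and of the 2 copies with neither, none did. Inside annotated Rian 5 of 11 copies reached it, and downstream 5 of 8 did.

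**Figure D1:**
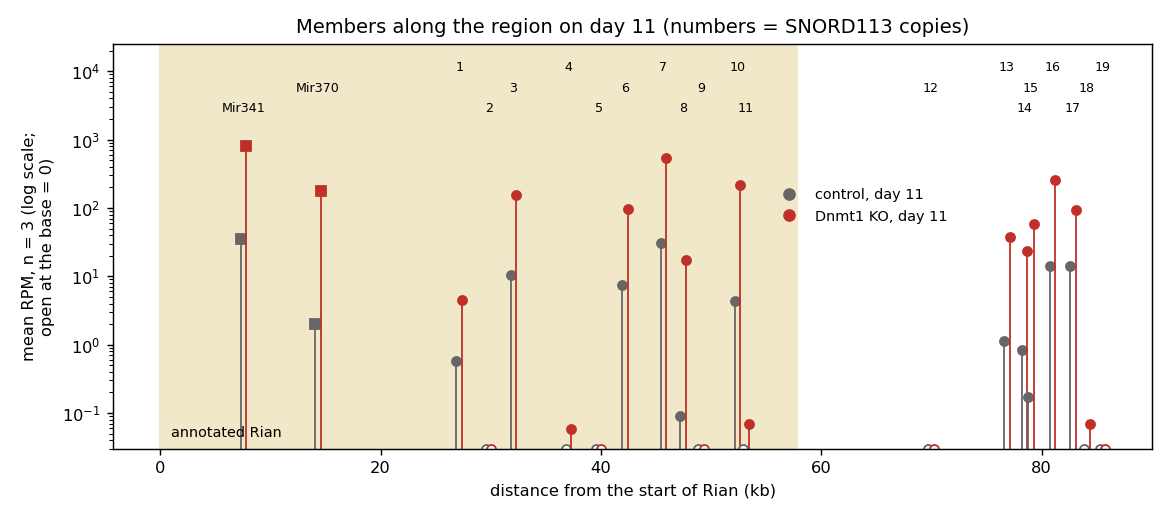
Mean RPM on day 11 (vertical log axis, n = 3 libraries) of Mir341 and Mir370 (squares) and the 19 SNORD113 copies (circles, numbered) against distance from the start of Rian in kb, with control in grey, Dnmt1 KO in red and annotated Rian shaded. Members with reads stand among copies with almost none, and Dnmt1 KO lies above control for each of the 12 tested members on both sides of the end of Rian.

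With Mir341 and Mir370, 12 of the 21 members could be tested in the time course (limma on log2(RPM + 1), adjusted over 2582 features). Of these, 6 (Mir341 and copies 3, 6, 7, 16 and 17) would have passed the level filter in control libraries alone. The other 6 (Mir370 and copies 8, 10, 13, 14 and 15) passed through Dnmt1 KO libraries, so a difference was built into their being tested. Their differences and adjusted p-values, and counts over the 12, are descriptions.

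On day 1 no member was called, against 98 of 2582 features (3.80%) called higher in Dnmt1 KO over the whole table. Mir341, copy 7 and copy 16 had an unadjusted p under 0.05 (3 of 12), and limma-voom on recovered reads also called 0. Mir341 was at 59.6, 60.2 and 54 RPM in control and at 84.9, 62.4 and 65.8 RPM in Dnmt1 KO. Its Dnmt1 KO libraries were all above control, but the log2 difference of 0.32 ± 0.14 (SE) had an adjusted p of 0.256 (limma, n = 3 per group). Copy 7 was at 40.2, 36.7 and 29.9 RPM in control and at 52.6, 45.6 and 54.3 RPM in Dnmt1 KO, a log2 difference of 0.55 ± 0.19 (limma adjusted p = 0.109). Mir370, at 7.27, 4.43 and 9.19 RPM in control and 7.32, 7.77 and 4.07 RPM in Dnmt1 KO, overlapped between them.

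On day 3 the miRNAs were called higher in Dnmt1 KO (2 of 12 members, against 3.64% of all features). Of the 10 tested SNORD113 copies 0 were called, 0 had an unadjusted p under 0.05, and limma-voom called 0. Mir341 stood at 58.1, 68.9 and 67.8 RPM in control and at 136, 118 and 115 RPM in Dnmt1 KO, 1.85-fold higher (log2 difference 0.89 ± 0.14, limma adjusted p = 4.1e-05). Mir370 stood at 3.59, 4.18 and 5.04 RPM in control and at 12.2, 7.8 and 8.12 RPM in Dnmt1 KO (log2 difference 0.94 ± 0.27, limma adjusted p = 0.0253). Both pairs of groups were separate. The share of all features with separate groups is not given, so separation here and on later days is a description. Mir370 rested on 40 and 85 reads, and its call was lost without Dnmt1 KO replicate 1 or without control replicate 1 or 2 (limma adjusted p of 0.129, 0.12 and 0.0745). In the R1-suffixed libraries, a parallel set with the same names, neither miRNA was called (limma adjusted p of 0.15 for Mir341 and 0.856 for Mir370). Copy 7 overlapped between control (45.5, 42.5 and 48.7 RPM) and Dnmt1 KO (44.1, 65.2 and 66.6 RPM), with a log2 difference of 0.31 ± 0.19. The 10 tested copies ranged from -0.41 to 0.65. Whether the miRNAs and the copies differed in their change was not tested.

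By day 6 all 12 tested members were called higher in Dnmt1 KO, where 11.5% of all features were. Mir341 reached 521, 577 and 515 RPM against 25.9, 29.7 and 30.6 RPM in control, a 16.3-fold difference (log2 difference 4.02 ± 0.14, limma adjusted p = 8.4e-26). Mir370 reached 98.7, 96.1 and 74.7 RPM against 3.36, 2.89 and 1.7 RPM, with a log2 difference of 4.54 ± 0.27 (3.58 with a pseudocount of 5 RPM). Every Dnmt1 KO library lay far above every control library for both miRNAs.

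The 4 SNORD113 copies with the highest mean over the time course were higher as well on that day. Copy 7 was at 143, 209 and 168 RPM in Dnmt1 KO and at 32.7, 32.6 and 35.7 RPM in control, 4.47-fold higher (log2 difference 2.16 ± 0.19, limma adjusted p = 1.2e-12). Copy 16 was at 66, 111 and 78.1 RPM against 11, 16.9 and 10.2 RPM (5.65-fold, limma adjusted p = 5.0e-11). Copy 3 was at 43.7, 49.3 and 45.7 RPM against 7.32, 8.25 and 8.5 RPM (4.74-fold, limma adjusted p = 5.2e-11). Copy 10 was at 63.3, 86 and 64.4 RPM against 3.97, 5.78 and 5.1 RPM (log2 difference 3.47 ± 0.23). Copy 10 ranks among the 4 through its Dnmt1 KO levels, and so in part does copy 3. Their choice therefore favours a higher difference. The groups of all 4 copies were separate, which is a description. The tested copies ranged from a log2 difference of 1.21 (copy 17) to 3.59 (copy 15), both singled out after their values were seen, with a median of 2.33.

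Because both kinds of RNA are read in the same library, their ratio does not depend on scaling. Mir341 and Mir370 together gave 0.384 ± 0.0268 reads per SNORD113 read in control and 1.33 ± 0.179 in Dnmt1 KO of day 6 (mean ± SD, n = 3). On day 1 the ratios were 0.702 ± 0.113 in control and 0.622 ± 0.0136 in Dnmt1 KO. In Dnmt1 KO the ratio was 0.933 ± 0.123 on day 3, 1.38 ± 0.0929 on day 9, 0.657 ± 0.0661 on day 11 and 0.734 ± 0.168 on day 25. The libraries of days 6 and 9 thus lay above those of days 1, 11 and 25, without overlap. In control the ratio also moved, from 0.719 ± 0.0641 on day 9 to 0.446 ± 0.0282 on day 11.

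**Figure D2:**
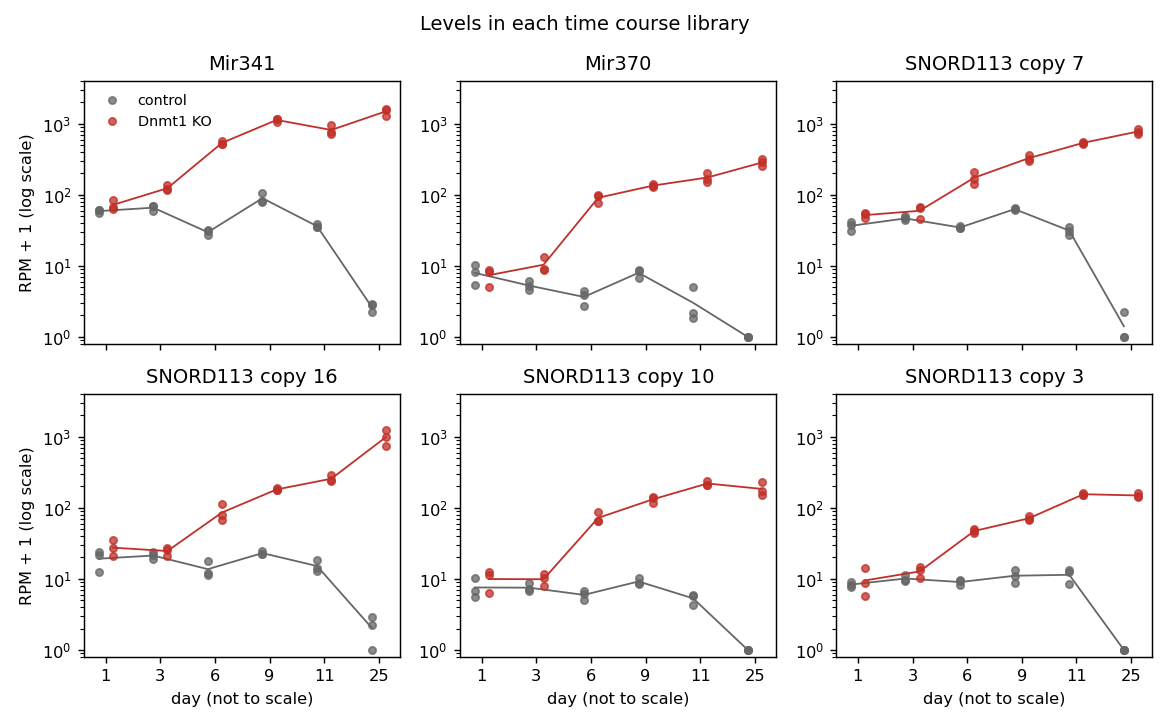
RPM + 1 (log axis) of Mir341, Mir370 and SNORD113 copies 7, 16, 10 and 3 by day, with 1 point per library (n = 3 per group) and lines through the group means, control in grey and Dnmt1 KO in red. The genotypes lie close together on day 1, are apart in all 6 panels from day 6 on, and on day 25 the controls fall to at most 1.92 RPM.

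On day 9 the 12 members were again called higher (11.7% of all features). Mir341 came to 1051, 1172 and 1172 RPM in Dnmt1 KO and to 105, 79.4 and 81.4 RPM in control (13.7-fold, limma adjusted p = 2.1e-24). Mir370 came to 142, 128 and 131 RPM against 7.5, 5.65 and 7.81 RPM (18.6-fold, limma adjusted p = 1.9e-17). Copy 7 was at 316, 365 and 301 RPM against 64.3, 61.4 and 60 RPM (5.62-fold, limma adjusted p = 1.5e-14). The controls were at their highest of the time course on this day for Mir341 and copy 7.

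Copy 16 held 189, 176 and 177 RPM in Dnmt1 KO and 21.3, 23.5 and 21.4 RPM in control on day 9 (8.52-fold, limma adjusted p = 8.5e-14). Copy 10 held 136, 141 and 115 RPM against 7.74, 7.41 and 9.45 RPM (15.7-fold), and copy 3 held 66.9, 74.9 and 68.8 RPM against 12.3, 10.1 and 7.81 RPM (7.09-fold). Levels in Dnmt1 KO varied little between replicates and never met those of control. The tested copies had log2 differences of 2.27 to 4.47 with a median of 2.98.

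On day 11 all 12 tested members were called higher (6.43% of all features). Mir341 was at 972, 754 and 726 RPM in Dnmt1 KO and 33.9, 34.1 and 37.5 RPM in control, 24.6-fold higher (log2 difference 4.62 ± 0.14, limma adjusted p = 2.1e-28). Mir370 was at 203, 153 and 167 RPM against 4.04, 1.19 and 0.824 RPM, with a log2 difference of 6.13 ± 0.27 on 22 control reads. With a pseudocount of 5 RPM in place of 1 that difference was 4.84. Copy 7 was at 562, 535 and 521 RPM against 34.7, 26.2 and 30.1 RPM, 19-fold higher (log2 difference 4.24 ± 0.19, limma adjusted p = 7.9e-23). None of these groups overlapped.

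Among the other abundant copies on day 11, copy 16 came to 285, 246 and 237 RPM against 17.5, 13.1 and 11.9 RPM (18.7-fold, limma adjusted p = 1.6e-18). Copy 10 came to 239, 210 and 209 RPM against 3.23, 4.77 and 4.94 RPM (46-fold). Copy 3 came to 161, 152 and 151 RPM against 7.54, 12.2 and 11.5 RPM (15.2-fold, limma adjusted p = 5.1e-19). Copy 17, lowest of the tested copies, had a log2 difference of 2.76 ± 0.25, with 93.3 ± 5.46 RPM in Dnmt1 KO and 14.2 ± 1.25 RPM in control (mean ± SD, n = 3). Copy 15, the highest, gave 866 reads in Dnmt1 KO and 2 in control, a ratio of 305 with an exact 95% counting interval of 84.1 to 2.52e+03. The untested copy 1 went from 0.576 ± 0.443 RPM in control to 4.53 ± 1.72 RPM in Dnmt1 KO.

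**Figure D3:**
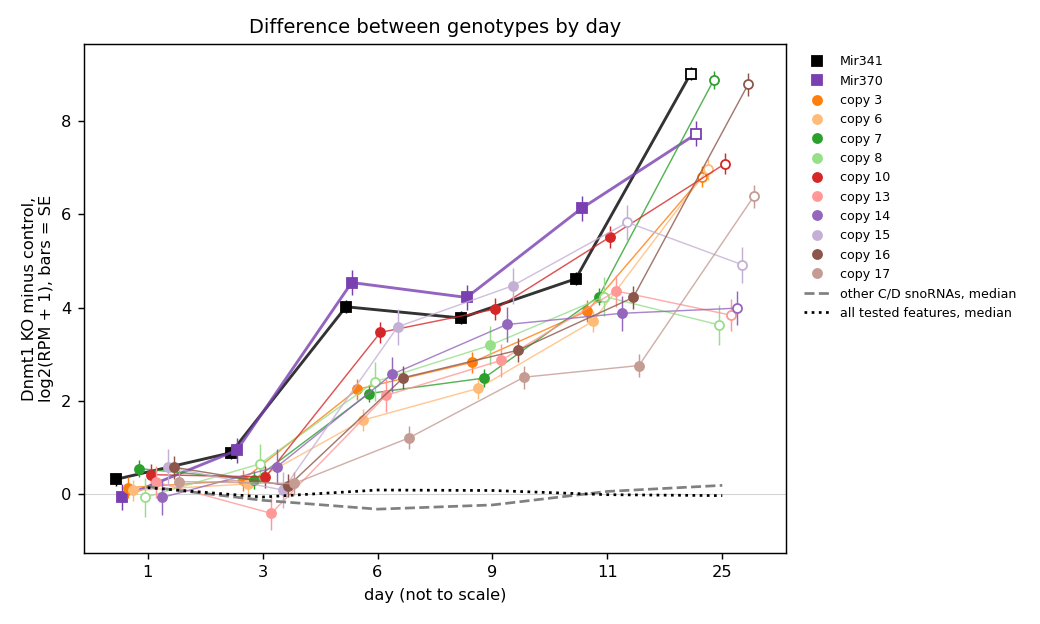
Difference between Dnmt1 KO and control on the log2(RPM + 1) scale (vertical axis, bars show the SE) for the 12 tested members by day, with open symbols where 1 genotype gave 3 reads or fewer in all, and the medians of 125 other C/D snoRNAs (dashed) and of all 2582 tested features (dotted). The members lie between -0.41 and 0.94 on day 3 and between 2.76 and 6.13 on day 11, while both medians stay between -0.32 and 0.19.

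The difference between genotypes itself grew from day 1 to day 11 in all 12 tested members (interaction, 4.49% of all features called higher). This interaction was 4.30 ± 0.20 for Mir341, 6.19 ± 0.38 for Mir370, 3.70 ± 0.27 for copy 7 and 5.11 ± 0.33 for copy 10 on the log2 scale, each with a limma adjusted p of at most 3.8e-15. Within Dnmt1 KO, the 12 members were higher on day 11 than on day 1 (16.0% of all features), by log2 values of 3.75 for Mir341, 4.83 for Mir370, 3.63 for copy 7, 4.76 for copy 10, 4.36 for copy 3 and 3.49 for copy 16. Of 125 tested C/D snoRNAs from elsewhere, 71 were called higher and 1 lower in this comparison, with a median log2 difference of 0.43.

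Day 25 set the highest Dnmt1 KO levels of Mir341, Mir370, copy 7 and copy 16 against controls with almost no reads. All 12 tested members were called higher, where 14.8% of all features were. Mir341 was at 1633, 1563 and 1294 RPM in Dnmt1 KO, with 2919 reads against 1 read in each control library, a ratio of 955 (exact 95% counting interval 326 to 4.63e+03). Mir370 was at 286, 250 and 316 RPM and gave no read in any control library, so it was at least 177-fold higher (bound against 3 reads over the control group).

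Of the snoRNA copies, copy 16 was at 741, 980 and 1247 RPM on day 25 and gave 2 reads in control (ratio 924, exact 95% counting interval 256 to 7.64e+03). Copy 7 was at 709, 777 and 851 RPM with 1 control read (ratio 1.47e+03, exact 95% counting interval 263 to 5.81e+04). Copies 3, 6, 10 and 17 gave no control read and were at least 94.5-fold, 104-fold, 113-fold and 70-fold higher. The lowest bound of a tested copy was that of copy 8, at least 9.81-fold, and the untested copy 1 was at least 4.25-fold higher (13 reads against 0). At this depth 3 reads correspond to 3.68 to 5.76 RPM in a control library.

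The controls themselves had changed by then. Against controls of day 1, 10 of 12 members were called lower on day 25, where 36.2% of all features were. With limma-voom 9 were called. Mir341 fell from 306 reads in 3 libraries to 3, a ratio of 37.2 (exact 95% counting interval 12.6 to 181), and copy 7 from 192 reads to 1, a ratio of 70 (12.4 to 2.78e+03). For copies 13 and 14, with 10 and 8 reads on day 1 and none on day 25, the ratio is bounded only at 1.22 and 0.973, so the reads alone show no clear fall. Copies 8 and 15 were not called, with 3 and 6 reads on day 1 and none on day 25. The summed ESC-abundant miRNAs were at 176156 to 209785 RPM in control of day 25 and at 116832 to 123978 RPM in control of day 1, and the summed miRNAs of other cell types at 1619 to 1722 and 11302 to 13342 RPM. Their part in the change was not tested. The differences of day 25 are therefore against a different control level from those of days 1 to 11.

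Which copies contributed also shifted. Copy 7 supplied 38% ± 1.7 (mean ± SD, n = 3) of all SNORD113 RPM in control on day 1, 41.3% ± 6 in Dnmt1 KO of that day and 35.9% ± 0.719 in Dnmt1 KO on day 11. Copy 10 supplied 7.11% ± 2.06 in Dnmt1 KO on day 1, 14.9% ± 0.737 on day 6 and 14.6% ± 0.378 on day 11, but 5.24% ± 1.47 in control on day 11. Copy 17 went the other way, on day 11 at 17% ± 0.695 in control and 6.21% ± 0.336 in Dnmt1 KO. Copy 16 held 21.2% ± 3.5 in Dnmt1 KO on day 1, 17% ± 0.683 on day 11 and 39.4% ± 4.48 on day 25. On the log2 scale copy 16 was 1.08 ± 0.09 below copy 7 within Dnmt1 KO libraries on day 11 and 0.32 ± 0.24 above it on day 25. These shares are descriptions and carry no test.

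**Figure D4:**
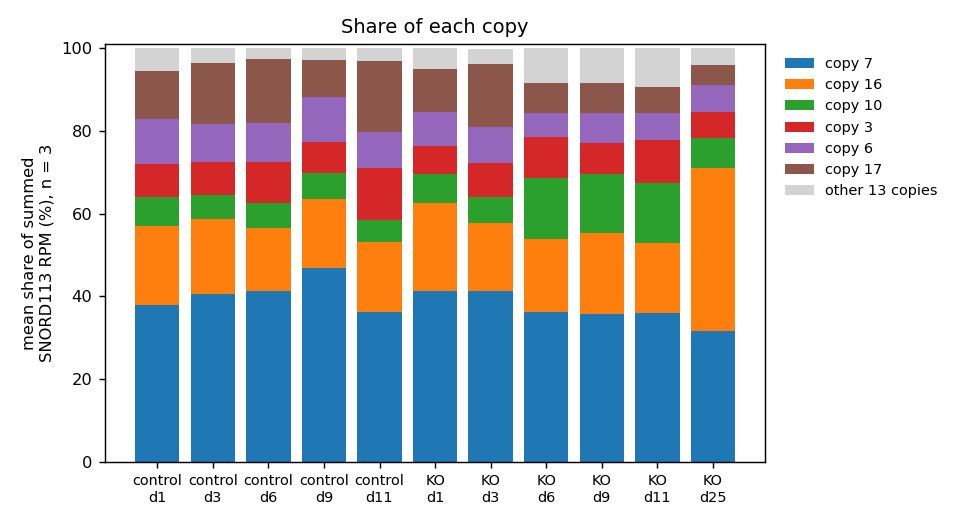
Stacked bars of the mean share (%, n = 3 libraries) that each SNORD113 copy took of the summed SNORD113 RPM, in control of days 1 to 11 and Dnmt1 KO of days 1 to 25 (control of day 25 has too few reads). Copy 7 is the largest block except in Dnmt1 KO of day 25, where copy 16 holds 39.4%.

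Rian, whose reads include those of its contained members, was higher in Dnmt1 KO by 4.06 ± 0.14 on the log2 scale on day 11. On day 25 it was at 3943, 3920 and 3902 RPM in Dnmt1 KO and at 3.59, 1.92 and 2.45 RPM (5 reads) in control, where it had fallen by 5.94 on the log2 scale since day 1. Features of other genes of the region were higher in Dnmt1 KO as well. Meg3, the noncoding RNA upstream, and Mirg, the miRNA host downstream, were higher by 3.47 ± 0.32 and 4.39 ± 0.13 on day 11 (limma adjusted p of 5.2e-12 and 2.9e-29). Rtl1, a retrotransposon-derived gene whose antisense strand carries miRNAs, was higher by 3.75 ± 0.14. Dlk1 and Dio3, the protein-coding genes at the ends of the region, did not reach the level for testing. Of 39 tested other miRNAs of the region, 17 were called higher on day 3, 38 on day 6 and 39 on day 11, with median log2 differences of 0.65, 3.1 and 3.97.

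Of 125 tested C/D snoRNAs from elsewhere, 38 were called lower and 0 higher on day 6 (limma; 0 with an unadjusted p under 0.05 in that direction, and 0 called by limma-voom), with a median log2 difference of -0.32. On day 1, 14 were higher (median 0.16), on day 3, 1 was lower (median -0.13), and on day 9, 14 were lower (median -0.23). On day 11, 2 were higher and 5 lower (median 0.06), and on day 25, 30 were higher and 3 lower (median 0.19). The 164 SNORD115 and SNORD116 features of the imprinted Snrpn region, and the 3 SNORD113 features on other chromosomes, did not reach the level for testing in any library set. The lists of other snoRNAs and miRNAs were chosen with earlier results of these data known.

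The AGO2 pull-down of Dnmt1 KO cells held both miRNAs and few SNORD113 fragments. In AGO2 Dnmt1 KO, Mir341 was at 685, 1258, 748 and 750 RPM and Mir370 at 146, 162, 207 and 175 RPM. In AGO2 control, Mir341 was at 4.96, 3.39, 0.194 and 0.315 RPM and Mir370 at 1.52, 1.39, 0.194 and 0 RPM. Both were therefore far higher in every Dnmt1 KO library, with log2 differences of 7.48 ± 0.62 and 5.93 ± 0.48 (limma adjusted p of 6.3e-06 and 5.7e-06, n = 4 per genotype). With pseudocounts of 5 and 0.25 RPM these were 6.18 and 8.12 for Mir341 and 4.30 and 6.93 for Mir370. They were the only members at the level for testing, which neither reached in AGO2 control alone, so a difference was built into their being tested. Over all 456 features, 69 (15.1%) were called higher and 195 lower. Scaled by library totals alone, 137 were called higher and 21 lower, and the median log2 difference of all features moved from -0.79 to 0.34, while both miRNAs stayed called. The summed markers of other cell types were at 2609 to 2988 RPM in AGO2 control and 7475 to 9871 RPM in AGO2 Dnmt1 KO, and their part was not tested. Mir341 averaged 2.22 RPM in AGO2 control but 88.5 RPM in total small RNA of control on day 9. In Dnmt1 KO these means were 860 and 1131 RPM. Why the genotypes lay further apart in AGO2 was not tested. Within AGO2 control, replicates 1 and 2 held more of both miRNAs than replicates 3 and 4.

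The 19 SNORD113 copies together gave 4, 3, 4 and 18 reads in the AGO2 Dnmt1 KO libraries, in which the miRNAs gave 957, 2206, 3221 and 10660 reads. In AGO2 control they gave 2 reads out of 79302938. Copy 7 had 8 reads in AGO2 Dnmt1 KO and 2 in AGO2 control, and copy 16 had 9 and 0. The ratio of miRNA to SNORD113 reads was 588 over the AGO2 Dnmt1 KO libraries and 1.38 over the total small RNA libraries of Dnmt1 KO on day 9. The lowest AGO2 Dnmt1 KO library, at 239, stood well above the highest day 9 library, at 1.48.

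**Figure D5:**
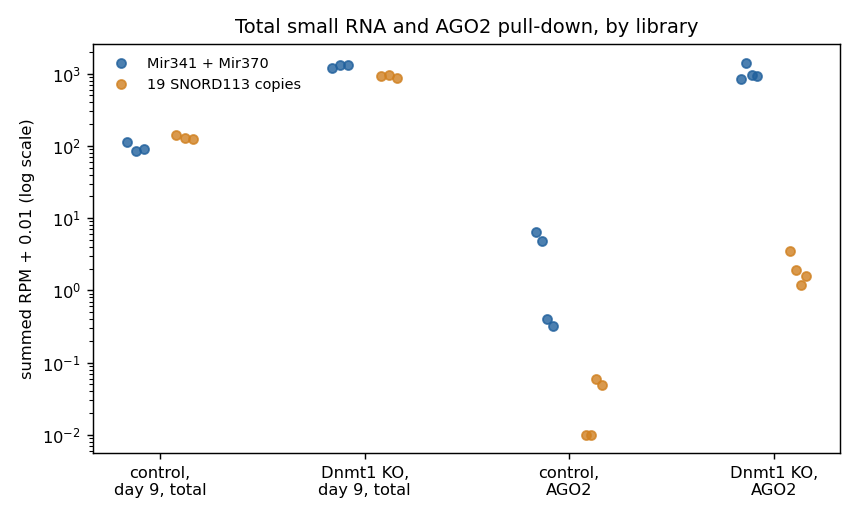
Summed RPM + 0.01 (log axis) of Mir341 and Mir370 (blue) and of the 19 SNORD113 copies (orange) in each library of total small RNA on day 9 (n = 3 per genotype) and of the AGO2 pull-down (n = 4 per genotype). Both sums are of similar height in total small RNA, whereas in AGO2 Dnmt1 KO the miRNAs are at 830 to 1420 RPM and the SNORD113 copies at 1.19 to 3.47 RPM.

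When AGO2 Dnmt1 KO was compared with day 9 Dnmt1 KO, 9 of the 11 tested members were called lower (67.8% of all features), all of them SNORD113 copies, and 2 higher (26.7% of all features), both miRNAs. No copy reached the level for testing in the AGO2 libraries, so the copies were tested only through the day 9 libraries, a lower value in AGO2 was built in, and their count is a description. Copy 7, at 0 to 1.74 RPM in AGO2 and at 301 to 365 RPM in total small RNA, had a log2 difference of -6.17 ± 0.28, and copy 16 one of -5.29 ± 0.24. With a pseudocount of 5 RPM these were -4.44 and -3.63. Copy 10 gave 2 reads in AGO2 against 2432, which is 1.15e+03-fold lower (exact 95% counting interval 318 to 9.5e+03). All 121 tested other C/D snoRNAs were called lower too, with a median of -6.20, and the same limit holds for them, since 1 reached the level for testing in the AGO2 libraries. The direction of the miRNAs depended on the scaling. Mir370 had a log2 difference of 2.25 ± 0.51 (limma adjusted p = 0.000562) and Mir341 one of 1.48 ± 0.62 (limma adjusted p = 0.0333), but with library totals these were 0.35 and -0.44 and neither was called. The median of all features was -1.86 with TMM scaling (trimmed mean of M values) and -3.33 with library totals.

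Across the 36 libraries the features most like the summed SNORD113 copies were Rian (Pearson r = 0.989 over log2(RPM + 1)), which contains 11 of them, AF357355 (0.989), whose feature lies between copies 9 and 10, and Mir541 (0.985), further downstream. Outside the Dlk1-Dio3 region the closest were BX470216.1 on chromosome 4 (0.875), Ccdc30, which contains it (0.870), and Mir463 on chromosome X (0.868). On day 11, BX470216.1 averaged 576 RPM in control libraries and 1219 RPM in those of Dnmt1 KO. These libraries share genotype, day and culture, so the correlations are descriptions.

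In PGCs, with 1 library per group, both kinds of member gave reads. The copies summed to 196 RPM in female and 77.2 RPM in male PGCs labelled E13_5, and to 152 RPM and 141 RPM in those labelled E14_5. Mir341 was at 70 and 92 RPM in E13_5 and at 32.9 and 37.5 RPM in E14_5. Mir370 was at 37 and 28.9 RPM, then at 21.5 and 17.9 RPM, in each case female before male. The same 8 copies that were nearly silent in ESCs gave no read in these 4 libraries, where 3 reads are 0.873 to 1.73 RPM. Without the R1 suffix there is a single library per sex and stage, and no comparison was made. The R1-suffixed library of E14_5 males had Mir341 at 83.5 RPM and copy 16 at 7.53 RPM. Without the suffix these were at 37.5 and 72.1 RPM, so the PGC levels are uncertain. ESC-abundant miRNAs summed to 12189 to 24377 RPM there, under the 110780 RPM of the lowest ESC library.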

How the data were processed

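Small RNA reads were trimmed with Trim Galore 0.3.5 by the authors, reads of 20 to 24 nt were mapped to NCBIM37 with Bowtie2 2.2.9, and features were counted in SeqMonk. The deposited values are RPKM, computed by the authors per kilobase of feature span and library size. Multiplied by the span in kilobases they became RPM. In every library, 100% of low RPM values were whole multiples of 1 step within 5%, from which depth and reads were recovered. The authors' use of strand, and their treatment of reads with several matches, are not given in the sources used here. In R1-suffixed libraries 89.7 to 96.9% of recovered reads were even, so a recovered read there may be 1 end of a fragment. Their reads were not halved and were otherwise handled like those of the other libraries.

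Differences were fitted with limma 3.58.1 (limma-trend, R 4.3.3, two-sided) on log2(RPM + 1) after TMM scaling (computed here, trimming 30% by log ratio and 5% by abundance). A feature was tested where 3 or more libraries reached 10 RPM. The 36 time course libraries shared a fit, as did the 8 AGO2 libraries, and the 8 AGO2 with the 6 day 9 libraries. Adjusted p-values (Benjamini-Hochberg over all features of a comparison) under 0.05 were called. Fold changes are on the log2(RPM + 1) scale and are understated for low members. Where a group gave 1 to 3 reads, the ratio carries an exact counting interval, and where it gave none, a bound against 3 reads over the group. Intervals and bounds cover counting error only.

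The members and lists were chosen with earlier results of these data known. Folds were named for Mir341, Mir370 and the 4 SNORD113 copies with the highest mean RPM over the 36 libraries, for Rian, and, by correlation, for 3 features inside and 3 outside the Dlk1-Dio3 region. Other genes of the region come from a fixed list. The series design text calls the replicates biological, but the labels do not say whether they are separate cultures. Same-numbered control and Dnmt1 KO libraries of the AGO2 pull-down deviated together (correlation of deviations 0.206 to 0.387 in 4 pairs). The AGO2 differences and p-values given above come from an unpaired fit, and their numbers pair the libraries only in the replicate block alternative. In the time course the correlations were -0.0613 to 0.0457. Recovery of known changes was tested on simulated data. Alternatives were other scalings, filters and pseudocounts, limma-voom, replicate blocks, single libraries left out, consecutive AGO2 replicates averaged, the suffixed libraries and each day alone. Mir1-1, Mir124-1 and Mir9-1 had no feature by these names. The PGC and "none" libraries entered no test.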

Additional observations from a re-analysis of the deposited data

Results flagged for a closer look

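The difference between genotypes was not the same on days 1 and 11 by the interaction test, which gave log2 values of 4.30 for Mir341, 6.19 for Mir370, 3.79 for copy 3, 3.70 for copy 7, 5.11 for copy 10 and 3.64 for copy 16. In AGO2 Dnmt1 KO, 1 of the 4 libraries stood apart for Mir341, at 1258 RPM against 685 to 750 RPM in the others; chance sets such a library apart in about 1 in 20 groups. Without it the log2 difference from AGO2 control was 7.35 (limma adjusted p = 1.3e-05).

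Several members were higher in PGCs than in any control ESC library. In female PGCs labelled E13_5 these were Mir370 at 37 RPM, copy 3 at 19.2 RPM, copy 6 at 24.5 RPM, copy 7 at 66.1 RPM, copy 10 at 17.4 RPM, copy 15 at 18.5 RPM and copy 16 at 44.8 RPM. In male PGCs of that stage they were Mir370 at 28.9 RPM, copy 10 at 13.8 RPM and copy 15 at 3.36 RPM. Female PGCs labelled E14_5 had Mir370 at 21.5 RPM, copy 15 at 4.66 RPM and copy 16 at 78.6 RPM, and male PGCs had Mir370 at 17.9 RPM, copy 15 at 5.77 RPM and copy 16 at 72.1 RPM. The highest control ESC library held 9.19 RPM of Mir370, 1.94 RPM of copy 15, 9.45 RPM of copy 10 and 23.5 RPM of copy 16. For copies 3, 6 and 7 the highest control value was 12.3, 16 and 64.3 RPM, so copy 7 at 66.1 RPM was barely above it. Among R1-suffixed PGC libraries, the E13_5 female library (114631 reads) had copy 7 at 209 RPM, copy 10 at 140 RPM and copy 16 at 69.8 RPM. The reads of these copies were 24, 16 and 8, and Mir370 gave none there. The E14_5 male library had Mir370 at 19.6 RPM but copy 16 at 7.53 RPM, under the highest control ESC library. The E13_5 male library (60317 reads) gave no read of any member. Each is a single library, and no difference was tested.

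The Dnmt1 KO library labelled "none" (9830 reads) had Mir341 at 509 RPM on 5 reads, where 3 reads are 305 RPM. Its control counterpart (57155 reads) had none, where 3 reads are 52.5 RPM.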

How the results depend on the processing

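Of 178 alternative counts of called members, 158 stayed within 1.5 times the reported count, and of 918 alternative values of named members, 900 kept their direction and call. On days 6, 9, 11 and 25 every tested member stayed called under each alternative, apart from the unfiltered fit (13 to 14 of 18 called) and the R1-suffixed libraries (9 of 12 on day 6). On day 1, 1 member was called with a pseudocount of 5 RPM in place of 0. On day 3, 1 was called in place of 2 with no filter, with a pseudocount of 0.25 RPM and with each day fitted alone, 0 in the R1-suffixed libraries (Mir341 0.80, Mir370 0.66), and 1 to 2 without single libraries. For AGO2 Dnmt1 KO against day 9 Dnmt1 KO, the 2 members called higher became 0 with library totals and 1 with median-ratio factors, no filter or a pseudocount of 0.25 RPM, and 1 to 2 without single libraries; Mir341 turned to -0.44 with library totals. The 9 called lower became 5 to 9 without single libraries, since 7 members then passed the filter when a day 9 library was left out. With the replicate block, which pairs the AGO2 libraries, 2 members stayed called there, and no call of a named member changed in any comparison; the time course numbers do not pair libraries. Against controls of day 1, 8 members were lower on day 25 with the replicate block in place of 10. Each block lies within a single day, so in that fit a difference between days does not compare group means. It is therefore no check of this count, nor of Dnmt1 KO day 11 against day 1.

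The pseudocount moved folds of named members by over 1.5 times where a group had a low RPM, without changing direction or call. The following values are log2 differences. For copy 10 minus control, 3.47 on day 6 became 2.86 and 5.52 on day 11 became 4.74 with 5 RPM, and the interaction became 4.47 for copy 10 and 4.87 for Mir370.

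Scaling by library totals moved the median log2 difference of all features on day 6 from 0.09 to 0.23, on day 11 from -0.01 to -0.13, from -0.25 to 0.08 for control day 25 against day 1 and from 0.04 to -0.19 for Dnmt1 KO day 11 against day 1. The share of all features called higher on day 6 was 11.5% with TMM, 17% with library totals and 10.4% with median-ratio factors, and the share called lower was 9.6%, 6.08% and 14.9%. On day 9 those shares were 11.7%, 9.37% and 10.1% higher and 4.53%, 9.6% and 8.02% lower. Within the time course depth limits day 25 most, where 1 read is more than 1 RPM.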
